A study of Triticum aestivum with 4 samples.

Results

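The transcripts described here are 286 assembled wheat root transcripts, in 137 assembled genes, whose best protein hit is a plastid or mitochondrial ribosomal protein or a tRNA ligase. They were chosen by the text of the hit, among transcripts with recoverable values per library, in which the least count of any library was 9. A further 32 with fitting text had no such values and were left out. A member had a hit in goatgrass (Aegilops tauschii, 272 members) or Brachypodium (14 members), named 30S, 50S, 28S or 39S ribosomal protein, ribosomal protein with chloroplastic or mitochondrial, or an amino acid followed by tRNA ligase. They are 286 of the 91482 transcripts for which values per library could be recovered, out of 147297 in all. The tested roots came from seeds held at 10 g for 12 h before sowing (Hypergravity), and the others from seeds left untreated (Control). Both were roots of bread wheat (Triticum aestivum), genotype UAS-375, 45 days old, grown in pipes in a greenhouse, with 2 mRNA libraries per group. By its title the study is about root growth promoted by hypergravity. Nothing says whether the libraries of a group were separate plants or pools, so p-values cannot be taken to measure spread between plants. They rest on the spread between these libraries, moderated by that of all transcripts.

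Plastids and mitochondria carry their own ribosomes, which resemble those of bacteria and have a small and a large subunit. Most of their proteins are encoded in the nucleus, made in the cytosol and imported, so their mRNAs appear among nuclear transcripts. tRNA ligases, also called aminoacyl-tRNA synthetases, attach an amino acid to its tRNA, and in Arabidopsis many of the organelle enzymes serve both plastids and mitochondria. Roots hold plastids too, mostly without chlorophyll.

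Of 80 ribosomal protein transcripts of both organelles 14 (17.5%) were lower after hypergravity, 0 were higher and 66 were not called. Over all transcripts 11.9% were lower and 13.5% higher. The lower shares of the plastid small and large subunits, 13.3% and 10.3%, were near that of all transcripts, and that of the mitochondrial ribosome was 25%. The members that were higher were all tRNA ligases, and none of those carried an organelle name. Among all ligases 11.2% were higher and 4.85% lower, both below the 13.5% and 11.9% of all transcripts. The names divide the members into 15 transcripts of the plastid small subunit, 29 of the plastid large subunit, 36 of the mitochondrial ribosome and 206 tRNA ligases. The description of the members as organelle proteins holds for only some of the ligases. Of the 206, 70 were named chloroplastic/mitochondrial, 11 mitochondrial, 100 cytoplasmic and 25 without a compartment. Isoforms of 1 assembled gene and copies from the wheat subgenomes share reads, so members are not independent. Of the 137 genes 70 had 1 member, and the most in a gene was 7. Transcripts are given by their assembly names without the prefix TRINITY.

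Values are normalized counts, that is read counts divided by a size factor per library, given for libraries a and b of each group. Calls of higher or lower rest on limma, at a Benjamini-Hochberg adjusted p under 0.05 over all 91482 transcripts. Recovered counts summed to 46604327 and 47850533 in Hypergravity and to 49424285 and 53346750 in Control. Of the 286 members 23 were higher, where 13.5% of all transcripts were, and 24 were lower, where 11.9% of all transcripts were. The other 239 were not called. Thus 8.04% of the members were higher and 8.39% were lower, and neither share exceeded that of all transcripts. The median log2 fold change (Hypergravity over Control, on normalized count plus 1) was -0.06, against -0.01 over all transcripts and -0.02 over the 59378 with hits in the same genera. Calls depended on single libraries. Without Hypergravity b 11 members were higher and 10 lower, and without Control b 14 were higher and 5 lower. A fit with a library left out has 1 library in that group, which is assumed to vary like those of the other group. The p-values of such a fit rest on the spread within the other group, moderated by that of all transcripts. Shares of all transcripts called in these fits are not given here. The changes in count therefore cannot be read as particular to the members.

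**Figure D1:**
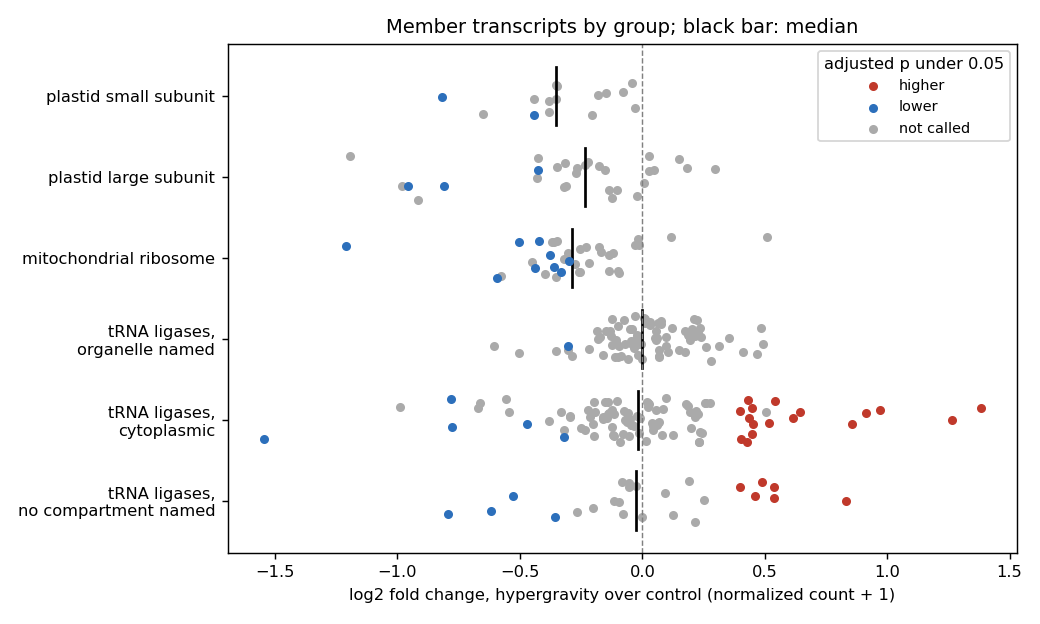
Log2 fold change of each member transcript (x axis, Hypergravity over Control, normalized count plus 1) by group (y axis), 1 point per transcript, coloured by the limma call, with a black bar at each group's median. The 3 ribosomal groups have medians of -0.35, -0.24 and -0.29 and no higher call, and the 23 higher calls all lie in the cytoplasmic and unnamed ligases.

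In the small subunit of the plastid ribosome, 2 of 15 members (13.3%) were lower, near the 11.9% of all transcripts, 0 were higher and all 15 log2 fold changes were below 0, with a median of -0.35. By limma, 6 had an unadjusted p under 0.05 downward and 0 upward. In 10 of the 15 both Hypergravity libraries lay below both Control libraries, a pattern found downward in 32.0% of all transcripts. The transcript of S31 (DN41438_c0_g1_i2) had normalized counts of 50.1 and 59.7 in Hypergravity and 98.6 and 95.8 in Control. Its groups did not overlap, and its log2 fold change was -0.82 ± 0.21 (SE; adjusted p = 0.0176). Ribosomal protein 3 (DN4604_c2_g1_i1), a protein of plastid ribosomes with no counterpart in most bacteria, had 231 and 245 in Hypergravity and 302 and 348 in Control. It fell by 0.44 ± 0.13 on the log2 scale, with an adjusted p of 0.0362 by limma, and its groups did not overlap. Each of these calls was lost on leaving out 1 library. That of S31 was lost without Hypergravity a (adjusted p = 0.0731) or Control a (adjusted p = 0.0529). That of ribosomal protein 3 was lost without Hypergravity a (adjusted p = 0.109), Hypergravity b (adjusted p = 0.077) or Control b (adjusted p = 0.272).

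S6 alpha, which in bacteria sits on the platform of the small subunit, had the most plastid small subunit isoforms. The 5 members of its gene DN5151_c0_g2 had log2 fold changes between -0.65 and -0.18, and none was called. Summed over the gene, normalized counts were 568 and 566 in Hypergravity and 759 and 697 in Control, and the gene was lower by 0.36 ± 0.11 on the log2 scale (limma over 47167 genes, adjusted p = 0.0452). The sum covers 6 transcripts, of which 5 are members. Over gene sums 0 of 10 small subunit genes were higher and 2 were lower, where 14.3% and 12.3% of all genes were. The transcript with the highest level per length was S13 (DN34235_c0_g1_i1), of the head of the subunit, at 422 normalized counts per kilobase in Hypergravity and 434 in Control. S13 had 363 and 334 normalized counts in Hypergravity and 352 and 364 in Control, and the groups overlapped. The changes nearest 0 in the group were those of S1 (DN19144_c0_g1_i1) at -0.03 and S13 at -0.04.

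In the large subunit of the plastid ribosome, 3 of 29 members (10.3%) were lower, near the 11.9% of all transcripts, and 0 were higher, with a median log2 fold change of -0.24. By limma 7 had an unadjusted p under 0.05 downward and 0 upward. Both called transcripts with the larger changes belonged to L10, which in bacteria anchors the stalk that binds elongation factors. Isoform DN25427_c0_g1_i1 had 41.7 and 32.9 normalized counts in Hypergravity and 70.0 and 76.1 in Control, and DN25427_c0_g1_i2 had 85.5 and 70.0 in Hypergravity and 119 and 156 in Control. The groups did not overlap in either isoform, and the log2 fold changes were -0.96 ± 0.24 and -0.81 ± 0.21 (limma, adjusted p = 0.0143 and 0.0185). The call of the first was lost without Hypergravity b (adjusted p = 0.0804) or Control b (adjusted p = 0.0537). A transcript of L5 (DN18356_c0_g1_i3), of the central protuberance in bacteria, had 196 and 206 in Hypergravity and 254 and 287 in Control. The change was -0.43 ± 0.14 on the log2 scale (limma, adjusted p = 0.0482), and this call was lost on leaving out any 1 library (adjusted p between 0.0634 and 0.309).

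Another L10 gene, DN24466_c0_g1, had larger differences that were not called. Its isoform i1 had 57.4 and 38.1 in Hypergravity and 59.2 and 147 in Control, and its isoforms i4 and i5 showed the same spread in Control. In all 3 isoforms Control b was more than any other library, while Control a lay close to Hypergravity a. Their log2 fold changes lay between -1.19 and -0.91, with SEs between 0.34 and 0.49. Of the 29 members, 22 were below 0 and 7 above. The highest was L6 (DN56451_c0_g1_i1), with 133 and 136 in Hypergravity and 106 and 114 in Control, a log2 fold change of 0.30 ± 0.17 that was not called (limma, adjusted p = 0.242). The transcripts with the highest level per length were L19 (DN13533_c0_g1_i4), at 706 normalized counts per kilobase in Hypergravity and 832 in Control, and L3-2 (DN15739_c0_g1_i5), at 413 in Hypergravity and 444 in Control. In both the groups did not overlap, but neither was called (limma, adjusted p = 0.115 and 0.491). Over gene sums 0 of 18 large subunit genes were higher and 1 was lower, where 14.3% and 12.3% of all genes were. Without Hypergravity b, and likewise without Control b, 0 members were lower, and without Control a 5 were lower.

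For the mitochondrial ribosome, 9 of 36 members (25%) were lower and 0 were higher, where 11.9% and 13.5% of all transcripts were. The log2 fold changes of 34 of the 36 were below 0, with a median of -0.29. By limma 13 had an unadjusted p under 0.05 downward and 0 upward. The 9 lie in 5 genes, and 4 of them are isoforms of L22, a protein that in bacteria lines the exit tunnel. The most abundant of these 4, DN11435_c0_g1_i5, had 761 and 735 normalized counts in Hypergravity and 1003 and 1026 in Control. Its groups did not overlap and its log2 fold change was -0.44 ± 0.09 (limma, adjusted p = 0.00719). All 4 L22 isoforms were lower, with log2 fold changes between -0.44 and -0.36. Summed, L22 had 2267 and 2202 in Hypergravity and 2916 and 3016 in Control.

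L21, a protein of the large subunit (DN38637_c1_g2_i3), had 407 and 419 normalized counts in Hypergravity and 609 and 562 in Control. The groups did not overlap, and the change was -0.50 ± 0.11 on the log2 scale (limma, adjusted p = 0.00761). L51 (DN8272_c0_g2_i1) had 179 and 136 in Hypergravity and 221 and 252 in Control, a log2 fold change of -0.59 ± 0.17 (limma, adjusted p = 0.0316). The other 3 L51 isoforms had log2 fold changes between -0.35 and -0.26 and were not called. The call of L51 was lost without Hypergravity b (adjusted p = 0.179) or Control b (adjusted p = 0.127).

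L46 (DN16334_c0_g1_i1) had 1147 and 1109 normalized counts in Hypergravity and 1381 and 1462 in Control, with no overlap. Its log2 fold change was -0.33 ± 0.09 (limma, adjusted p = 0.0227). It was among the 2 highest of the mitochondrial group per length, at 916 normalized counts per kilobase in Hypergravity and 1155 in Control. The other 2 transcripts of its assembled gene hit a membrane protein, so its sum over the gene mixes both. The L46 call was lost without Hypergravity b (adjusted p = 0.0702), Control a (adjusted p = 0.0648) or Control b (adjusted p = 0.196).

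S16-2, a small subunit protein that is named chloroplastic/mitochondrial and could serve either organelle, had the largest change of all ribosomal members. Its isoform DN25721_c0_g1_i5 had 43.8 and 32.9 normalized counts in Hypergravity and 104 and 77.0 in Control, a log2 fold change of -1.21 ± 0.25 (limma, adjusted p = 0.00618). The isoform i1 of the same gene, which had the highest level per length of the group at 1007 normalized counts per kilobase in Hypergravity and 1239 in Control, had 728 and 692 normalized counts in Hypergravity and 897 and 850 in Control. It changed by -0.30 ± 0.10 (limma, adjusted p = 0.0478). The groups overlapped in neither isoform. The remaining mitochondrial members included L41-A (DN21463_c0_g1_i1) at -0.45, S31 (DN8166_c0_g1_i3) at -0.36 and the L45 isoforms at -0.30 and -0.26, none of them called. The 2 members above 0 were L19 (DN2391_c1_g2_i1) at 0.51 ± 0.31 and a L37 transcript (DN18561_c0_g1_i1) at 0.12 ± 0.29. The first of the 2 was the only mitochondrial member above 0 whose groups did not overlap. Over gene sums 0 of 21 mitochondrial genes were higher and 4 were lower, where 14.3% and 12.3% of all genes were. Without Control b 3 mitochondrial members were lower, without Hypergravity b 4 were lower, and without Control a 1 was higher.

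**Figure D2:**
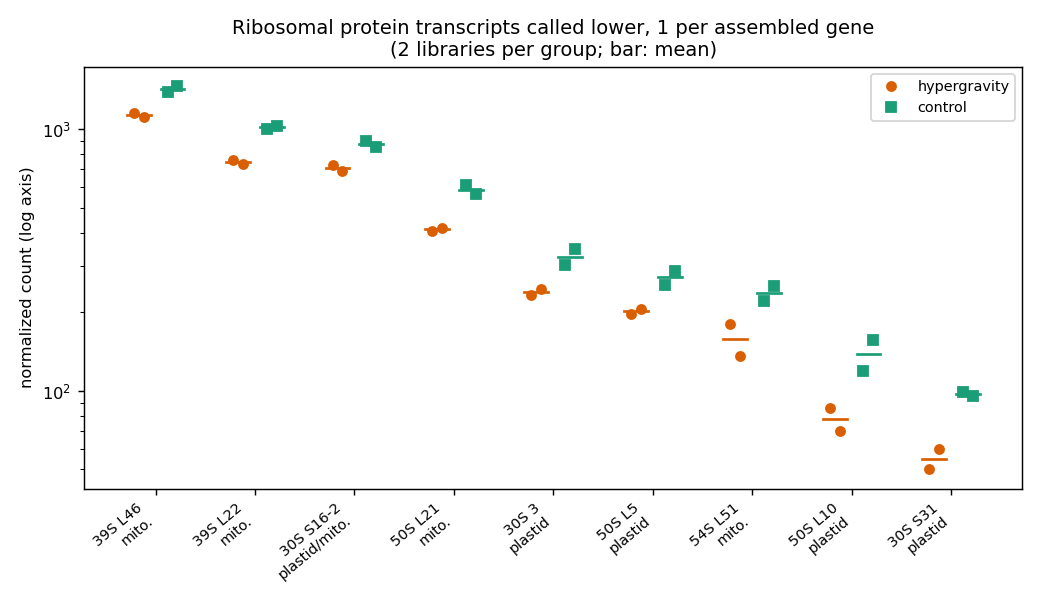
Normalized counts (y axis, log scale) in each Hypergravity library (orange circles) and each Control library (green squares) for the 9 assembled ribosomal protein genes with a lower call, 1 transcript each, with a bar at the mean of the 2 libraries. In each of the 9 both Hypergravity libraries lie below both Control libraries.

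Together 14 of 80 ribosomal members (17.5%), in 9 genes, were lower and 0 were higher, where 11.9% and 13.5% of all transcripts were. In 71 of the 80 the log2 fold change was below 0, with a median of -0.27. The groups did not overlap downward in 52 of the 80 and upward in 3, where 32.0% and 31.9% of all transcripts did not. Summed over the 80, normalized counts were 19792 and 18711 in Hypergravity and 22326 and 23449 in Control. In bulk RNA, fewer cells of a type and less RNA per cell cannot be told apart. The libraries of 1 group also differed from each other in these transcripts. The median log2 difference of library b from library a was -0.12 in Hypergravity and 0.08 in Control, against 0.00 and 0.01 over all transcripts.

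The cytosolic ribosome translates nuclear mRNAs. Of 222 transcripts named 40S or 60S ribosomal protein, 90 were lower, 1 was higher and 131 were not called, with a median of -0.29, where 11.9% of all transcripts were lower and 13.5% higher. Their median differences of library b from library a were -0.12 in Hypergravity and 0.11 in Control, near those of the organelle ribosomal proteins. Ribosomal members were short, with a median of 857 bases, against 1164 over all transcripts. Among transcripts with hits in the same genera, 9.19% of those under 1100 bases were higher and 15.3% were lower, and of those of at least 1100 bases 15.9% were higher and 11.5% were lower. With the trend on length removed from each library, 2 small subunit, 3 large subunit and 10 mitochondrial members were lower, and the group medians were -0.33, -0.23 and -0.30.

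The tRNA ligases with an organelle name were almost all without a call. Of 81 members named chloroplastic/mitochondrial or mitochondrial, in 32 genes, 0 were higher and 1 (1.23%) was lower. Both shares were below the 13.5% and 11.9% of all transcripts. The median log2 fold change of the 81 was 0.00. By limma 8 had an unadjusted p under 0.05 upward and 2 downward. The difference between ligases and ribosomal proteins was not tested. The 1 lower transcript was glycine--tRNA ligase, mitochondrial 1-like (DN3359_c0_g2_i3), the most abundant glycine ligase per length. It had 4479 and 4972 normalized counts in Hypergravity and 5757 and 5876 in Control, with no overlap, and a log2 fold change of -0.30 ± 0.09 (limma, adjusted p = 0.035).

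Another glycine gene, DN52857_c0_g3, named chloroplastic/mitochondrial 2-like, had 4 members between 0.28 and 0.48, none called. Its sum was 666 and 590 in Hypergravity and 538 and 430 in Control, not overlapping, with a change of 0.38 ± 0.14 (limma over genes, adjusted p = 0.079). The isoleucine gene DN10714_c0_g1, chloroplastic/mitochondrial-like, also lay above 0. Summed over its 4 members it had 9349 and 10649 normalized counts in Hypergravity and 8931 and 8180 in Control, with log2 fold changes between 0.21 and 0.24 and no call. Threonine--tRNA ligase, chloroplastic/mitochondrial 2 (DN52499_c0_g1_i1) had 120 and 168 in Hypergravity and 97.6 and 107 in Control, a change of 0.47 ± 0.20 that was not called (limma, adjusted p = 0.124). The lowest organelle ligase was a valine--tRNA ligase, chloroplastic/mitochondrial 2 isoform (DN22280_c0_g1_i3) at -0.61 ± 0.27, with 18.8 and 23.7 in Hypergravity and 36.5 and 29.1 in Control, and it was not called (limma, adjusted p = 0.138).

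The ligases named cytoplasmic, or without a compartment, held all 23 higher calls, as well as 9 lower ones. Of the 100 named cytoplasmic 17 (17%) were higher and 5 (5%) lower. Of the 25 without a compartment 6 (24%) were higher and 4 (16%) lower. Over all transcripts 13.5% were higher and 11.9% lower. The 23 lie in 7 genes for 5 amino acids: arginine, lysine, tyrosine, aspartate and asparagine. In each of these amino acids at least 1 other ligase gene was not called higher. Over gene sums 7 of 88 ligase genes were higher and 4 were lower, where 14.3% and 12.3% of all genes were. Without Hypergravity b 11 ligase members were higher and 5 lower, and without Control b 14 were higher and 1 lower. Without Control a 6 were lower.

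Asparagine had the largest rise. The 2 members of DN30826_c0_g1, asparagine--tRNA ligase, cytoplasmic 1-like, were both higher. Isoform i5 had 153 and 123 normalized counts in Hypergravity and 56.2 and 47.9 in Control, a log2 fold change of 1.38 ± 0.21 (limma, adjusted p = 0.00113), and isoform i7 changed by 1.27 ± 0.22. Summed, the gene had 322 and 257 in Hypergravity and 127 and 102 in Control, 2.52-fold higher in Hypergravity. The other cytoplasmic asparagine gene, DN14646_c0_g2, was the more abundant, with 1287 and 1304 in Hypergravity and 1280 and 1391 in Control, and its groups overlapped. The organelle-named asparagine gene DN21795_c0_g1 had 2085 and 2359 in Hypergravity and 2278 and 2196 in Control over its 5 members, which also overlapped.

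Tyrosine had 2 higher genes of 5 cytoplasmic ones. DN10442_c0_g1 had 3 of 4 members higher. Its isoform i7 had 292 and 387 normalized counts in Hypergravity and 148 and 198 in Control, a log2 fold change of 0.97 ± 0.19 (limma, adjusted p = 0.00397), and the fourth member stood at 0.51 ± 0.22 without a call. In DN20483_c0_g1, tyrosine--tRNA ligase 2, cytoplasmic-like, both members were higher. Its isoform i12 had 714 and 636 in Hypergravity and 427 and 502 in Control, a change of 0.54 ± 0.12 (limma, adjusted p = 0.00868). The other 3 of its 5 transcripts are not ligases by their hits, so its gene sum, 3410 and 3463 in Hypergravity and 2308 and 2589 in Control, mixes annotations. The most abundant tyrosine gene, DN3059_c0_g2, had 6229 and 6536 in Hypergravity and 6569 and 6644 in Control over 6 members, and was not called.

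Lysine had 2 higher genes among 3 without a named compartment. All 5 members of DN591_c0_g2 were higher, with log2 fold changes between 0.40 and 0.83. Summed, they had 7707 and 8254 normalized counts in Hypergravity and 5891 and 5488 in Control, 1.40-fold higher in Hypergravity, a change of 0.49 ± 0.08 (limma over genes, adjusted p = 0.00251). The isoform with the largest change, i8, had 91.8 and 104 in Hypergravity and 56.2 and 52.6 in Control, at 0.83 ± 0.21, and its call was lost without Hypergravity b (adjusted p = 0.0917). The single member of DN7378_c0_g1, i15, had 155 and 160 in Hypergravity and 107 and 109 in Control. The other 7 transcripts of that assembled gene had hits to proteins that are not ligases, and its member shares its best hit with DN591_c0_g2. The third gene, DN10907_c0_g2, had 7960 and 8416 in Hypergravity and 8661 and 8579 in Control, a change of -0.07 ± 0.08 that was not called.

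Arginine had 1 higher gene of 6 cytoplasmic ones. All 7 members of DN6664_c0_g1 were higher, within the narrow range of 0.40 to 0.45 on the log2 scale. Summed, they had 5355 and 5836 normalized counts in Hypergravity and 4282 and 3987 in Control, 1.35-fold higher in Hypergravity, a change of 0.44 ± 0.09 (limma over genes, adjusted p = 0.00586). Of the other 5 arginine genes 1 was lower and 4 were not called. The lower one, DN28525_c0_g2_i1, had 190 and 194 in Hypergravity and 267 and 265 in Control, at -0.47 ± 0.13 (limma, adjusted p = 0.0281). The best hit of DN6664_c0_g1 was shared with 0 other ligase genes.

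Aspartate had 1 higher gene of 10 cytoplasmic ones. In DN2816_c0_g1 3 of 4 members were higher, and the fourth stood at 0.26 ± 0.17. Isoform i10 had 389 and 390 normalized counts in Hypergravity and 221 and 280 in Control, a change of 0.65 ± 0.14 (limma, adjusted p = 0.00838). Summed, the gene had 1549 and 1582 in Hypergravity and 1059 and 1129 in Control, 1.43-fold higher in Hypergravity. The most abundant aspartate gene, DN1254_c1_g3, had 1883 and 2084 in Hypergravity and 1918 and 1833 in Control, and its groups overlapped. None of the other 9 aspartate gene sums was called.

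**Figure D3:**
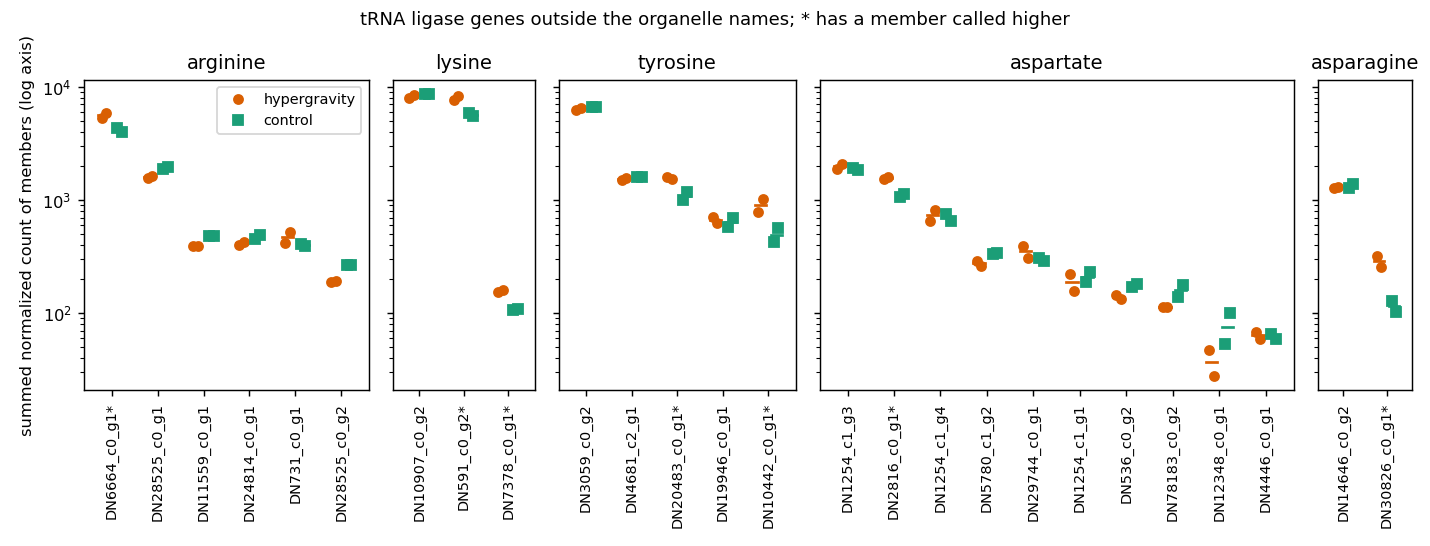
Summed normalized counts of member transcripts (y axis, log scale) per assembled tRNA ligase gene (x axis) in each Hypergravity library (orange circles) and each Control library (green squares), for the 5 amino acids with a higher call, without the organelle-named genes. Bars are means of 2 libraries, and stars mark the 7 genes with a higher member, each of which stands beside at least 1 gene of the same amino acid without such a call.

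The 10 lower ligase transcripts lie in 8 genes. Isoleucine--tRNA ligase, cytoplasmic (DN4795_c2_g1_i1) had the largest fall of all members, with 78.2 and 117 normalized counts in Hypergravity and 316 and 252 in Control. Its groups did not overlap and its log2 fold change was -1.55 ± 0.21 (limma, adjusted p = 0.000578). In another cytoplasmic isoleucine gene, DN8714_c0_g1, 2 of 5 members were lower. The isoform i2 had 106 and 81.3 in Hypergravity and 139 and 186 in Control, at -0.78 ± 0.21 (limma, adjusted p = 0.0223), and i5 changed by -0.32 ± 0.10. The call of i2 was lost without Hypergravity b (adjusted p = 0.124) or Control b (adjusted p = 0.144). The most abundant isoleucine transcript per length, DN1610_c0_g1_i6, had 2674 and 2998 in Hypergravity and 2862 and 2630 in Control, which overlapped.

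Alanine ligases without a named compartment had 3 lower members of 5, in DN83897_c0_g1 and DN10967_c0_g1, where 11.9% of all transcripts were lower. DN83897_c0_g1_i2 had 149 and 84.4 normalized counts in Hypergravity and 177 and 216 in Control, at -0.79 ± 0.25 (limma, adjusted p = 0.0421), and its isoform i1 changed by -0.62 ± 0.17. DN10967_c0_g1_i11 had 368 and 248 in Hypergravity and 424 and 450 in Control, at -0.53 ± 0.17 (limma, adjusted p = 0.0472). Hypergravity b was the lowest library in each, and without it the calls of DN83897_c0_g1_i2 (adjusted p = 0.238) and DN10967_c0_g1_i11 (adjusted p = 0.27) were lost. They were also lost without Control b (adjusted p = 0.0604 and 0.0504). The call of DN10967_c0_g1_i11 was lost too with trimmed-mean (TMM) scaling and with total-count scaling (limma, adjusted p = 0.0518 and 0.0566). Summed over the gene, DN10967_c0_g1 changed by -0.13 ± 0.08 without a call (limma over genes, adjusted p = 0.286). The other isoform of DN10967_c0_g1, i1, was the most abundant ligase per length, at 2739 normalized counts per kilobase in Hypergravity and 2963 in Control, and was not called at -0.12 ± 0.09. It was followed by proline--tRNA ligase, cytoplasmic-like (DN5903_c0_g1_i4), at 2563 normalized counts per kilobase in Hypergravity and 2836 in Control, at -0.15 ± 0.09 without a call.

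Aspartate--tRNA ligase 2, cytoplasmic (DN78183_c0_g2_i8) had 30.2 and 34.0 normalized counts in Hypergravity and 52.3 and 59.2 in Control, at -0.78 ± 0.24 (limma, adjusted p = 0.0382). Its call was lost on leaving out any 1 library (adjusted p between 0.0648 and 0.197). This gene had the widest spread between isoforms of any member gene, since its isoform i5 stood at 0.23. A probable methionine--tRNA ligase (DN9775_c0_g1_i8) had 1509 and 1592 in Hypergravity and 1984 and 1981 in Control, at -0.36 ± 0.09 (limma, adjusted p = 0.0142). Higher ligase members were long and lower ones short, with medians of 2057 and 1010.5 bases. With the trend on length removed all 23 higher calls and 9 of the 10 lower calls remained.

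Of 67 genes with over 1 member, 15 had a called member. Of the 67, 0 had members called in both directions, and the median range of log2 fold change within a gene was 0.12. In 7 of the 15 every member was called and in 8 only some. In 1 of the 67, DN78183_c0_g2, the range exceeded 1. Isoforms share reads, so their values are not independent.

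Summed by amino acid, cytoplasmic ligases were above Control in both Hypergravity libraries for 7 of 14 amino acids and below for 4. Organelle-named ligases were above for 5 of 18 and below for 6, and ligases without a compartment were above for 1 of 5 and below for 3. The tally depends on the scale. With each transcript's normalized count divided by its length before summing, cytoplasmic ligases were above for 6 of 14 and below for 6, and organelle-named ones were above for 5 of 18 and below for 5. These sums have no test of their own, and 31.9% and 32.0% of single transcripts were separated upward and downward. The largest cytoplasmic ratio was that of histidine, from a single transcript, with 1246 and 1317 normalized counts in Hypergravity and 1123 and 999 in Control, 1.21-fold. The cysteine sum was 2103 and 2301 in Hypergravity and 1858 and 1942 in Control, 1.16-fold, and that of methionine 6076 and 6240 in Hypergravity and 5314 and 5502 in Control, 1.14-fold. No histidine, cysteine or cytoplasmic methionine transcript was called.

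The arginine, asparagine, aspartate, lysine and tyrosine sums were separated upward by less than their called genes, at 1.13, 1.09, 1.09, 1.13 and 1.06-fold. The direction of arginine turned on the per-length scale, where its summed level was 4560 and 4840 normalized counts per kilobase in Hypergravity and 4954 and 5037 in Control. In the organelle class the aspartate sum was 1039 and 1187 in Hypergravity and 947 and 988 in Control, and the phenylalanine sum 1117 and 1040 in Hypergravity and 950 and 870 in Control. The glycine sum was 8152 and 8775 in Hypergravity and 9480 and 9615 in Control, and 8 of its 9 members were not called. The median log2 fold change of all 9 was 0.28. The called member, DN3359_c0_g2_i3, held 4479 and 4972 of the sum in Hypergravity and 5757 and 5876 in Control. For arginine and glutamine no organelle-named member was found, and for glycine, threonine and valine only organelle-named ones were. The classes rest on the hit names, and where the enzymes act was not tested. Over all amino acids the sums overlapped between groups: cytoplasmic ligases had 71344 and 75470 in Hypergravity and 72661 and 71505 in Control, organelle-named ones had 50791 and 55475 in Hypergravity and 53511 and 52199 in Control, and those without a compartment had 42222 and 44987 in Hypergravity and 44127 and 43603 in Control.

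**Figure D4:**
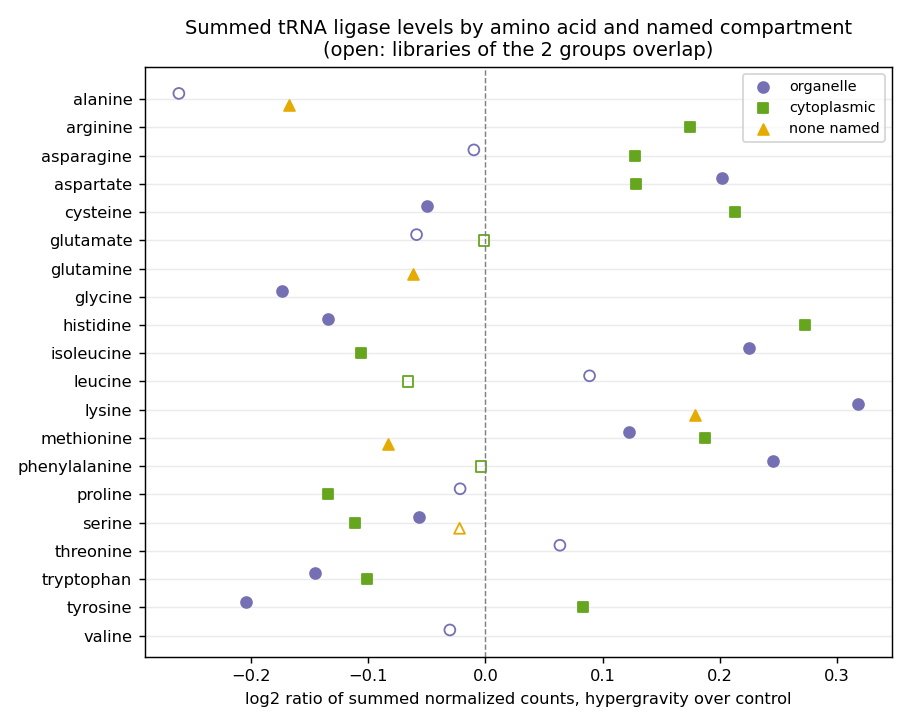
Log2 ratio of summed normalized counts (x axis, Hypergravity over Control) for the tRNA ligases of each amino acid (y axis), by the compartment in the hit name: organelle (circles), cytoplasmic (squares) or none named (triangles). Filled symbols mark sums whose libraries do not overlap between the groups, and all log2 ratios lie between -0.26 and 0.32.

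Other proteins of organelle gene expression were counted from lists of names in the same genera. Their counts stand beside the 13.5% of all transcripts that were higher and the 11.9% that were lower. Of 19 transcripts of organelle elongation factors, which move the ribosome along the mRNA, 0 were higher and 1 was lower, with a median of -0.10. By limma 0 of them had an unadjusted p under 0.05 upward. The lower one was elongation factor G-2, chloroplastic (DN26615_c0_g1_i3), with 77.2 and 104 normalized counts in Hypergravity and 153 and 129 in Control, at -0.64 ± 0.21 (limma, adjusted p = 0.0463). Of 47 initiation, release and recycling factors 3 were higher and 0 lower, and all 3 were eukaryotic release factor 1-2-like, a cytosolic protein that the pattern also took. Among the 35 left without the eukaryotic factors 0 were called by limma in either direction, and 1 upward and 2 downward had an unadjusted p under 0.05. Of 22 ribosome assembly factors 1 was higher, a transcript named nep-1-like methyltransferase (DN151_c2_g2_i2) at 0.88 ± 0.26, and 0 were lower. In yeast Nep1 acts in the assembly of the cytosolic ribosome, so the pattern took a name from outside the organelles here too.

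Of 60 transcripts of organelle transcription proteins, 8 (13.3%) were lower, near the 11.9% of all transcripts. The 1 higher was 1.67%, against 13.5% of all transcripts, and the median was -0.15. Of the lower ones 7 were isoforms of sigma factor sigA (DN720_c0_g1), a subunit that directs the plastid RNA polymerase to promoters. Its isoform i9 had 533 and 622 normalized counts in Hypergravity and 1150 and 954 in Control, at -0.86 ± 0.12 (limma, adjusted p = 0.000721), and the 7 lay between -1.11 and -0.36. Of 626 pentatricopeptide repeat proteins, which process organelle RNA, 5 (0.80%) were higher and 34 (5.43%) lower, with a median of -0.02. Both shares were below those of all transcripts. Of 130 tRNA modification enzymes 0 were higher and 4 (3.08%) lower, also below the shares of all transcripts. By limma 5 had an unadjusted p under 0.05 upward and 4 downward. Of 99 transcripts of the import list 8 (8.08%) were higher and 6 (6.06%) lower, both below the 13.5% and 11.9% of all transcripts. The 8 were all TOM1-like proteins, which act in vesicle sorting and were taken by the text pattern. The lower ones were named TOM7-1, TOM9-2, TIM23-1, TIM22-3 and TIC 55, parts of the import machinery of both organelles.

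Markers were checked beside these results. Transcripts named ROOT HAIR DEFECTIVE 3, SHORT-ROOT and SCARECROW, listed as root markers, were present, 11 in all, with 0 higher and 1 (9.09%) lower. Their summed normalized counts, 14991 and 16843 in Hypergravity and 15503 and 14972 in Control, came mostly from ROOT HAIR DEFECTIVE 3. The 5 with log2 fold changes above 0 were all ROOT HAIR DEFECTIVE 3, and the 6 below 0 were all SHORT-ROOT or SCARECROW. The lower one was SCARECROW 2-like (DN7991_c1_g1_i2) at -0.75 ± 0.25. Of 9 photosynthetic transcripts 2 (22.2%) were higher and 2 (22.2%) lower. Over all transcripts 13.5% were higher and 11.9% lower. The 2 higher were isoforms of 1 gene, DN11030_c0_g1. The 2 lower were oxygen-evolving enhancer protein 2 (DN48442_c0_g1_i1) at -0.98 ± 0.18 and a photosystem I chlorophyll a/b-binding protein 5 isoform (DN16641_c0_g1_i14) at -1.01 ± 0.20. Summed over the 9, normalized counts were 2295 and 1983 in Hypergravity and 1794 and 1854 in Control, and no small chain of RuBisCO matched. The most abundant of the 9, isoform i4 of a photosystem II 10 kDa polypeptide (DN11030_c0_g1), had 1105 and 984 in Hypergravity and 779 and 767 in Control. The part of green tissue in the plastid results was not tested.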

How the data were processed

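The members, name lists and tests were chosen with earlier results of these data known. Paired-end reads came from stranded mRNA libraries, per the labels' protocols. RSEM is named in the submitters' processing notes, without a version, and no source used here gives the settings of assembly and counting. The authors deposited 1 value per group and transcript, headed as FPKM per the file headers. In 91482 transcripts that deposited value is a normalized signal, the sum over 2 libraries of a count divided by a size factor. Each such sum split into 1 pair of whole counts (100% of transcripts, tolerance 1e-09), which gave libraries named a and b here. The other 55815 transcripts have values of at most 2 decimals and were not tested. Since the counts were recovered from sums, log2(normalized count + 1) was tested with limma 3.58.1 in R 4.3.3, with an intensity trend and Benjamini-Hochberg adjustment, on 2 residual and 7.91 prior degrees of freedom (median SE 0.18), and no count model was used. Fold changes on this scale understate changes of low transcripts. Tables were made with Python 3.11.15, pandas 2.3.3 and numpy 2.4.6. The test was tested on simulated data. Named transcripts were up to 5 per direction and group with the largest change among those called with no overlap between groups, 1 per gene, the 2 highest per length in each group and the highest for each amino acid. Others were chosen after their values were seen. Names are those of the best protein hit. Alternatives were other scalings, pseudocounts, a filter on low values, each library left out, gene sums and a length correction. No interval for counting error was computed, since the libraries give the spread.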

Additional observations from a re-analysis of the deposited data

Results flagged for a closer look

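A further 32 transcripts fit the naming rule but have 1 deposited value per group, headed FPKM, and were in no comparison. They were looked at because 6 of them were listed at 0 in Control and at 1 or more in Hypergravity, with no replicate and no test. Glutamate--tRNA ligase, cytoplasmic (DN6305_c1_g1_i1) had 2.89 in Hypergravity, and a phenylalanine--tRNA ligase beta subunit (DN73141_c0_g1_i2) had 2.69. Cysteine--tRNA ligase CPS1 homolog (DN59191_c0_g1_i1) had 1.83, 39S ribosomal protein L18 (DN59723_c0_g1_i1) 1.79, tyrosine--tRNA ligase 1, cytoplasmic (DN106535_c0_g1_i1) 1.67 and a lysine--tRNA ligase-like transcript (DN44583_c0_g1_i2) 1.1. Of the 32, 19 were higher in Hypergravity, 12 in Control and 1 was at 0 in both.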

How the results depend on the processing

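No paired analysis was possible because the recovered libraries carry no replicate number. The planned edgeR quasi-likelihood and DESeq2 alternatives were not run, and no count model was fitted to the recovered counts. Upper-quartile and total-count scaling and the length correction were chosen after seeing the data. With 1 library left out, higher members numbered 11 to 27 and lower ones 5 to 23, against 23 and 24 with all. Lower small subunit members numbered 0 to 1, large subunit 0 to 5, mitochondrial 3 to 9 and ligases 1 to 10. Higher mitochondrial members numbered 0 to 1 and higher ligases 11 to 27. The median of all members, -0.06, was -0.0938 to -0.0433 with a library left out, -0.0872 with upper-quartile scaling, -0.0804 with quantile normalization, -0.0972 with the length trend removed and -0.0797 over gene sums. Gene sums gave 7 higher and 11 lower for all members, 7 higher and 4 lower for ligases, 1 lower for the large subunit and 4 lower for the mitochondrial ribosome. In the other scalings, pseudocounts and the filter, 23 members were higher and 21 to 28 lower. Of 19 named called transcripts none changed direction, but most lost their call under at least 1 alternative. These losses came mostly with a library left out, while total-count scaling lost 2. A group with 1 library left is assumed to vary like the other, and shares of all transcripts called in such fits are not given here. The cause of these shifts was not tested. With 2 libraries per group, spread between libraries limits what can be called.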
